A study of Mus musculus with 6 samples.

Results

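Zfp42, Tcl1, Fbxo15, Dppa2, Dppa4, Dppa5a and Tdh are 7 mouse genes known as markers of naive pluripotency. They were taken by name from the GENCODE annotation of the GRCm38 genome, and they are 7 of 21755 protein-coding genes on chromosomes 1 to 19 and X. The annotation gives them 25 transcription starts of 93196. For each gene the CpG sites in its promoters, in its gene body and in the 10 kb on either side were examined. A promoter was taken from 1000 bp before to 100 bp after a start.

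DNA methylation was measured by bisulfite sequencing of whole genomes in 2 libraries each of 3 mouse pluripotent cell states. Advanced pluripotent stem cells (ASCs) were lines obtained from blastocysts by way of an intermediate culture and then held in a medium with Activin A, BMP4, CHIR99021 and LIF. Embryonic stem cells (ESCs) were held in 2i/LIF, a medium of kinase inhibitors and LIF that keeps cells naive. Epiblast stem cells (EpiSCs) are the primed state. All 6 libraries carry the strain 129S2/SvPasCrl, the genotype wild type and the cell type embryonic stem cells in their labels, and the study described the cells used for this assay as female. The DNA came from bulk cultures, so a level is a share of reads and does not tell cells or alleles apart. No RNA was analysed here, so neither the silencing of these genes nor the identity of the cells was checked against expression. The labels number the replicates and the methods call them biological. If the cultures were not separate, the p-values given here measure technical spread only.

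Naive cells resemble the inner cell mass of the blastocyst and primed cells the later epiblast. Most CpG sites of a vertebrate genome are methylated in differentiated cells, whereas CpG-rich promoters usually stay free of methylation. Promoters with few or moderate numbers of CpG sites can gain methylation, which often accompanies stable silencing. The 7 genes have different roles. Zfp42, also called Rex1, encodes a zinc finger protein related to YY1 and is a classical naive marker. Dppa2 and Dppa4 encode SAP-domain proteins that act together on chromatin. Dppa5a encodes an RNA-binding protein with a KH domain. Tcl1 encodes a co-activator of the AKT kinase, Fbxo15 an F-box protein of ubiquitin ligases and Tdh the mitochondrial enzyme threonine dehydrogenase, which mouse ESCs use in their metabolism.

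Reads were too few for single CpG sites, and so they were summed over windows. A read at a CpG site is called an observation, and the level of a window is the share of its observations that were methylated. A window was tested where every library had at least 40 observations. It was called where the adjusted p of a quasi-binomial model moderated with limma was under 0.05 and the means lay 20 percentage points or more apart. With 2 libraries against 2 an exact permutation test cannot go below 0.333, and none is given. Libraries held between 63803799 and 74925271 CpG reads, with a mean coverage between 2.96 and 3.46 reads per CpG. Over chromosomes 1 to 19 and X, the share of methylated observations was 59.8% and 60.2% for the ASC libraries, 17.9% and 18.2% for the ESC libraries and 81.0% and 80.2% for the EpiSC libraries. Where a level is 0, the upper limit given is that of 3 counts. It covers counting error only and takes the observations as independent. Neighbouring CpG sites can lie on the same read, so the true limits may be wider.

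The promoters of Zfp42 and Tcl1 are shown as the members matched by symbol in the RefSeq promoter table used here. The first had the widest gap between ASCs and EpiSCs and the second the most reads. Each sequence is the 250 bases before the RefSeq start in GRCm38.p6, read 5′ to 3′ on the gene's own strand, with CpG sites in capitals. Both genes lie on the minus strand. The stretch of Zfp42 is chr8:43307010-43307259 and holds 9 CpG sites. That of Tcl1 is chr12:105222738-105222987 and holds 7. Promoters of this length held a median of 6.
Zfp42: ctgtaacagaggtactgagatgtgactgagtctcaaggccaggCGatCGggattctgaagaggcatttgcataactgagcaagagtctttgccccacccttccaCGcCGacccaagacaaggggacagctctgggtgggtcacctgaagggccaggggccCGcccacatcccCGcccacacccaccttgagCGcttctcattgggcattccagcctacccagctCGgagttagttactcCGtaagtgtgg
Tcl1: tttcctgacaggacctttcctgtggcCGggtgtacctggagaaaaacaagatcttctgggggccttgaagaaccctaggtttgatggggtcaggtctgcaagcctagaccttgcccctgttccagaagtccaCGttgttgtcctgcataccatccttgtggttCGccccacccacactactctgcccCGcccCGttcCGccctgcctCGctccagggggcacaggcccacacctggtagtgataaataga

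At the 9 CpG sites of the Zfp42 stretch, 0 of 37 observations were methylated in ASCs and 0 of 36 in ESCs, against 51 of 53 in EpiSCs, with both libraries of a group added. At the 7 sites of Tcl1 ASCs had 0 of 34, ESCs 2 of 57 and EpiSCs 91 of 96. Nearly every observation at these sites was thus unmethylated in ASCs and ESCs and methylated in EpiSCs. The reads were uneven over the sites of Zfp42, where the CpG at base 108 had no read in any group and those at bases 44 and 48 had 1 read in each group. A search on both strands found the octamer ATGCAAAT, a sequence bound by POU factors such as Oct4, at bases 65 to 72 of Zfp42, on the strand opposite to the one printed. It is present in 1.6% of 32851 promoters of this length. The SP/KLF box GGGCGG was found in both genes, again on the opposite strand, at bases 160 to 165 and 172 to 177 of Zfp42 and at bases 187 to 192 and 197 to 202 of Tcl1, and 32.7% of promoters have it. This box contains a CpG. At the box from base 160 of Zfp42, 0 of 5 reads were methylated in ASCs and 8 of 8 in EpiSCs. At the box from base 187 of Tcl1 these were 0 of 5 and 11 of 12. The E-box CACGTG, present in 6.02% of promoters, was in neither. The matches do not overlap each other. They describe the letters only, and binding was not measured.

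The first question was how the promoters of naive markers differ between ASCs and primed EpiSCs. All 7 promoters were unmethylated or nearly so in ASCs, as they were in ESCs, and heavily methylated in EpiSCs. At 1 representative start per gene, group means lay between 0% and 13.7% in ASCs with a median of 1.67%. They reached at most 2.78% in ESCs and lay between 83.2% and 95.9% in EpiSCs with a median of 93.7%. At each of the 7 genes both ASC libraries lay below both EpiSC libraries. The share of all promoters for which this holds was not counted, so this does not set the 7 genes apart. Over the promoters of all 14489 genes that reached the minimum, the median level was 4.59% for ASCs, 1.52% for ESCs and 13.8% for EpiSCs.

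Of the 7 representative promoters 4 reached 40 observations in every library, those of Zfp42, Tcl1, Dppa5a and Tdh, and all 4 were called lower in ASCs than in EpiSCs. Over all 63941 promoter windows tested, 30.2% were called lower in ASCs and the median difference was -8.52 points. Among windows with 9 to 40 CpG sites, the range of most member promoters, the share was 49.5% and the median -19.8 points. The 3 others, Fbxo15, Dppa2 and Dppa4, were too shallow at that minimum. With a minimum of 10 observations all 7 were tested and called lower in ASCs, where 35.5% of 83604 windows were, and all 7 were called higher in EpiSCs than in ESCs, where 55.7% were. The genes were chosen with earlier results of these data known. The study had already named Zfp42, Tcl1 and Fbxo15 among genes with demethylated promoters in ASCs relative to EpiSCs. The calls are therefore not independent evidence that naive markers differ from other genes.

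**Figure D1:**
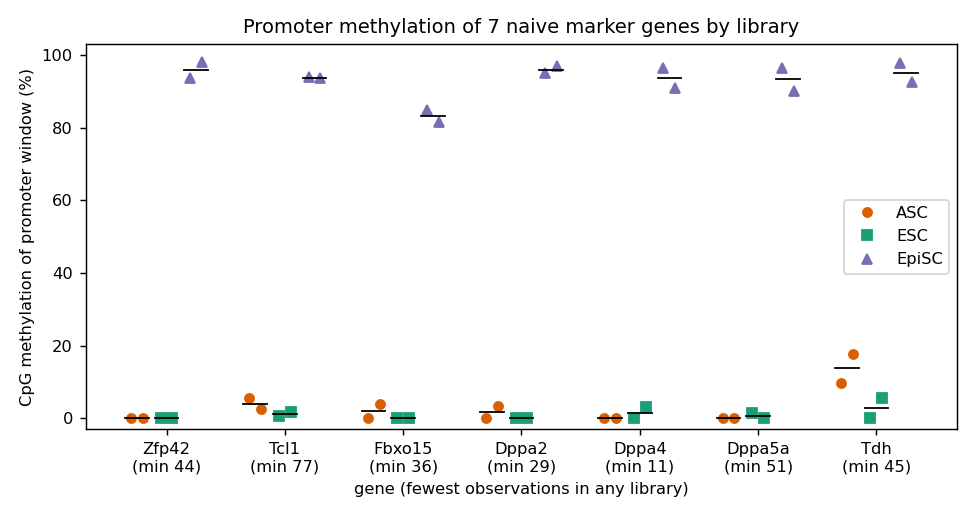
CpG methylation of the representative promoter of each gene, in percent, with 1 point per library and a bar at the mean of each group of 2. The number under a gene is the fewest observations in any library. All ASC and ESC points lie under 20%, and all EpiSC points lie above 80%.

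Among the DNA-binding proteins, Zfp42 showed the widest gap. Its representative promoter (chromosome 8, 43306836 to 43307936, 36 CpG sites) had 0 of 74 and 0 of 44 methylated observations in the ASC libraries, which allows levels of up to 4.05% and 6.82%. ESCs had 0 of 84 and 0 of 75. EpiSCs had 59 of 63 and 53 of 54, or 93.7% and 98.1%. ASCs and ESCs could not be told apart here, and the difference between ASCs and EpiSCs was -95.9 points (adjusted p = 4.54e-07). Of the 36 CpG sites 5 had no read in any library. All 11 sites with at least 5 reads in the ASC group stood at 0%, and the 12 with that depth in EpiSCs lay between 80% and 100%.

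Dppa2 and Dppa4 are neighbours on chromosome 16, and their representative starts lie 26742 bp apart. At Dppa2 (48309477 to 48310577, 14 CpG sites) 0 of 29 and 1 of 30 observations were methylated in ASCs, 0 of 53 and 0 of 51 in ESCs, and 56 of 59 and 32 of 33 in EpiSCs. At Dppa4 (48282735 to 48283835, 10 CpG sites) these were 0 of 23 and 0 of 33, then 0 of 29 and 1 of 31, then 27 of 28 and 10 of 11. Both genes thus followed the pattern of Zfp42 on far fewer reads, and the ASC zeros of Dppa4 allow up to 13.0% and 9.09%. At the minimum of 10 observations the differences between ASCs and EpiSCs were -94.3 points for Dppa2 (adjusted p = 2.34e-06) and -93.7 points for Dppa4 (adjusted p = 1.01e-05).

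The promoter of Dppa5a, the gene of the RNA-binding protein (chromosome 9, 78368077 to 78369177, 19 CpG sites), had 0 of 74 and 0 of 79 methylated observations in ASCs. ESCs had 1 of 70 and 0 of 80, and EpiSCs 80 of 83 and 46 of 51. All 18 CpG sites with at least 5 reads in ASCs stood at 0%. ASCs were lower than EpiSCs by -93.3 points (adjusted p = 4.25e-07).

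Tcl1 (chromosome 12, 105222637 to 105223737, 29 CpG sites) was the deepest of these promoters. Its ASC libraries had 5 of 90 and 2 of 77 methylated observations, its ESC libraries 1 of 130 and 2 of 113, and its EpiSC libraries 155 of 165 and 159 of 170. The EpiSC libraries differed from each other by less than 1 point, at 93.9% and 93.5%. The ASC mean of 4.08% ± 2.09 (SD, n = 2) and the ESC mean of 1.27% ± 0.71 (SD, n = 2) differed by 2.81 points, which was not called (adjusted p = 0.187). The gap to EpiSCs was -89.7 points (adjusted p = 1.05e-07).

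At Fbxo15, the F-box gene (chromosome 18, 84934158 to 84935258, 13 CpG sites), ASCs had 0 of 39 and 2 of 49 methylated observations and ESCs 0 of 36 and 0 of 56. EpiSCs had 39 of 46 and 31 of 38, or 84.8% and 81.6%, the lowest EpiSC mean of the 7 genes. This level was uneven along the window. From an offset of -432 bp onwards, counted from the start, 6 of 7 CpG sites lay between 84.6% and 100%, and 1 stood at 57.1%. The 6 sites further upstream had 2 to 6 reads each, and 1 of them reached 100%. At the minimum of 10 observations ASCs were lower than EpiSCs by -81.1 points (adjusted p = 4.83e-06).

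Tdh, the metabolic gene, was the least bare in ASCs. Its representative promoter (chromosome 14, 63508992 to 63510092, 16 CpG sites) had 9 of 93 and 8 of 45 methylated observations in ASCs, or 9.68% and 17.8%. ESCs had 0 of 68 and 4 of 72, and EpiSCs 44 of 45 and 74 of 80. Both ASC libraries lay above both ESC libraries, but the difference of 10.9 points was under the 20 points of a call and had an adjusted p of 0.0787. A pair of CpG sites at offsets of -876 and -881 bp from the start carried most of the methylated reads. They had 7 and 8 methylated reads of 12 each in ASCs and 2 of 9 and 2 of 8 in ESCs. Of the other 14 sites in ASCs, 2 had 1 methylated read each and 12 had none. In a window that ends 500 bp to either side of the start, which leaves this pair out, the difference between ASCs and ESCs was -0.28 points. Against EpiSCs the difference in the longer window was -81.4 points (adjusted p = 5.13e-06).

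Against ESCs, 0 of the 4 tested representative promoters were called in ASCs, where 27.7% of all promoter windows were called higher than in ESCs, 0% were called lower, and the median difference was 3.76 points. Among windows with 9 to 40 CpG sites this share was 51.3%. At an unadjusted p under 0.05 the count was 1, that of Tdh, where 49.6% of all windows passed and were higher in ASCs. By limma on M values 0 were called, where 27.5% of all windows were called higher, and by Fisher's exact test 0, where 27.7% were. The calls missed do not show that ASCs and ESCs were equal at these promoters. For the comparison of EpiSCs with ESCs, all 4 were called higher in EpiSCs, as were 43.9% of all windows and 72.8% of those with 9 to 40 CpG sites, with differences between 92.4 points at Tdh and 95.9 points at Zfp42.

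All annotated starts were examined next, since a gene can have several promoters. Of the 25 starts 13 reached the minimum, and 12 of these were called lower in ASCs than in EpiSCs and higher in EpiSCs than in ESCs, against 30.2% and 43.9% of all 63941 windows. Between ASCs and ESCs 0 were called by this model, against 27.7% of all windows, and 1 passed an unadjusted p of 0.05, against 49.6%. Their windows overlap within a gene and are not independent. The 3 starts of Zfp42 and the 6 starts of Tcl1 gave nearly the same levels. An upstream start of Dppa2 at 48303908 had 5 of 43 and 2 of 34 methylated observations in ASCs, 2 of 41 and 0 of 44 in ESCs, and 39 of 41 and 36 of 36 in EpiSCs. A second start of Tdh at 63508756, with 33 CpG sites, had 0 of 141 and 2 of 110 in ASCs, 0 of 115 and 1 of 156 in ESCs, and 138 of 144 and 140 of 149 in EpiSCs. This Tdh window lacks the distal pair of sites described above, and its difference between ASCs and EpiSCs was -94.0 points (adjusted p = 7.45e-08).

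The tested start that was not called belongs to Fbxo15. It lies inside the gene at 84952116, and its window holds 55 CpG sites. The representative start of Timm21, a mitochondrial import gene on the opposite strand, lies at 84951524 within this window. The window had 1 of 246 and 0 of 115 methylated observations in ASCs, 1 of 197 and 0 of 220 in ESCs, and 0 of 162 and 0 of 186 in EpiSCs. This CpG-rich window, shared with the start of Timm21, therefore had at most 1 methylated observation in each of the 6 libraries. Another promoter of Fbxo15 was methylated in EpiSCs. An internal start of Tdh at 63500259 was also low everywhere. It had 0 of 23 and 0 of 18 in ASCs, 1 of 38 and 0 of 46 in ESCs, and 5 of 37 and 3 of 34 in EpiSCs. By contrast, the starts of Fbxo15 furthest downstream, at 84959238 and 84965510, were methylated in ASCs too, with means of 74.8% and 58.5%. At the minimum of 10 observations ASCs exceeded ESCs at both, with calls of 39.4 points (adjusted p = 0.00118) and 42.6 points (adjusted p = 0.00195), where 39.9% of windows were.

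The second question was whether the low level of ASCs ended at the promoter or ran into the gene. Bodies were counted without the promoter windows of their own gene. A body follows the gene record, so the windows are unlike. That of Dppa2 also takes in the stretch between its upstream start at 48303908 and its representative start at 48310477. That of Dppa5a is short and holds 24 CpG sites. All 7 bodies were called lower in ASCs than in EpiSCs, where 65.7% of 19510 bodies were and the median difference was -23.1 points. Against ESCs 4 of 7 were called higher in ASCs, where 89.3% of all bodies were and the median was 40.5 points. All 7 were higher in EpiSCs than in ESCs, as were 96.8% of bodies. The 7 genes fell into 2 sets by their own levels. ASC means were under 20% in the bodies of Zfp42, Dppa5a and Tdh and above 30% in those of Dppa2, Fbxo15, Tcl1 and Dppa4.

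Zfp42 had 16 of 512 and 21 of 478 methylated observations in its body in ASCs, against 5 of 518 and 4 of 523 in ESCs and 386 of 410 and 301 of 317 in EpiSCs. ASCs lay 2.89 points above ESCs (adjusted p = 0.00319), under the size of a call, and 90.8 points below EpiSCs (adjusted p = 1.46e-13). Of the 12820 gene bodies that stood at 80% or more in EpiSCs, 29 had an ASC mean at or below that of Zfp42, its own included, which is 0.226%. This was the smallest such share among the members, and for the others it ran from 0.476% at Dppa5a to 11.7% at Dppa4. The median ASC level of these 12820 bodies was 63.7%.

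The short body of Dppa5a had 8 of 57 and 1 of 50 methylated observations in ASCs, 4 of 70 and 2 of 54 in ESCs, and 51 of 54 and 37 of 43 in EpiSCs. Its ASC libraries straddled those of ESCs, with a difference of 3.31 points that was not called (adjusted p = 0.454). The body of Tdh stood at 14.3% and 15.3% in the ASC libraries, at 4.05% and 4.01% in the ESC libraries and at 90.1% and 90.8% in the EpiSC libraries. ASCs were 10.8 points above ESCs, with an adjusted p of 2.63e-07 but under the 20 points of a call.

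In the other 4 bodies ASCs stood clearly between the other cell types. ASC levels were 34.9% and 34.3% at Dppa2, 47.8% and 44.9% at Tcl1, 48.6% and 49.1% at Dppa4, and 46.0% and 46.0% at Fbxo15. ESC means ranged from 10.9% at Fbxo15 to 20.9% at Dppa4, and EpiSC means from 86.5% at Fbxo15 to 94.7% at Dppa4. The gain of ASCs over ESCs was 21.0 points at Dppa2, 27.1 at Tcl1, 28.0 at Dppa4 and 35.1 at Fbxo15, with adjusted p-values between 1.61e-11 and 6.28e-07. The call of Dppa2 was lost without ESC replicate 1, where the gain was 19.5 points.

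In the flanks most of the 7 genes were partly methylated in ASCs, and Dppa5a was an exception. Its 10 kb upstream had 10 of 377 and 22 of 314 methylated observations in ASCs, 6 of 347 and 6 of 407 in ESCs, and 360 of 379 and 293 of 316 in EpiSCs. Of the 16008 upstream flanks that stood at 80% or more in EpiSCs, 4 had an ASC mean at or below that of Dppa5a, its own included, which is 0.025%. For the other tested members this share ran from 5.36% at Fbxo15 to 29.2% at Dppa2. Another gene, Ooep, starts just beyond the upstream flank of Dppa5a on the same strand and is transcribed towards Dppa5a. The upstream flanks of Tcl1, Tdh, Dppa4, Dppa2 and Fbxo15 had ASC means between 40.9% and 57.5%. All 6 tested upstream flanks were called lower in ASCs than in EpiSCs, as were 72% of 20425, and 5 were called higher than in ESCs, as were 92.5%. All 6 were higher in EpiSCs than in ESCs, as were 98.4%. The upstream flank of Zfp42 had only 24 to 66 observations per library over 215 CpG sites and was not tested. No library had a read upstream of an offset of -4500 bp, so this flank was seen only in its part nearest the start. It had 0 of 39 and 4 of 33 methylated observations in ASCs and 23 of 29 and 21 of 24 in EpiSCs.

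Downstream, ASC means ran from 18.0% at Dppa5a and 40.6% at Zfp42 to 70.9% at Tcl1. Of the 7 flanks 6 were called lower in ASCs than in EpiSCs, as were 64.3% of 20678, and 6 were called higher than in ESCs, as were 90.4%. All 7 were higher in EpiSCs than in ESCs, as were 98%. Tcl1 was the one not called against EpiSCs, at -19.2 points, and it was called without ASC replicate 2 or without EpiSC replicate 2, at -22.2 and -20.8 points. Dppa5a was the one not called against ESCs, at 10.7 points. The downstream flank of Dppa4 and the upstream flank of Dppa2 are nearly the same stretch of DNA and count as 1 observation of the genome.

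The place of ASCs between the other cell types was then put on a scale where 0 is the ESC mean and 1 the EpiSC mean. Over all genes whose EpiSC and ESC means differed by at least 40 points, the median place of ASCs was 0.459 at promoters, 0.638 in bodies, 0.626 upstream and 0.644 downstream. At the tested promoters the members stood at 0 for Zfp42, 0.0304 for Tcl1, -0.0077 for Dppa5a and 0.119 for Tdh. In bodies they stood at 0.0309 for Zfp42, 0.0387 for Dppa5a, 0.125 for Tdh, 0.265 for Dppa2, 0.364 for Tcl1, 0.379 for Dppa4 and 0.465 for Fbxo15. All 7 bodies thus lay below the median of genes, to very different degrees.

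**Figure D2:**
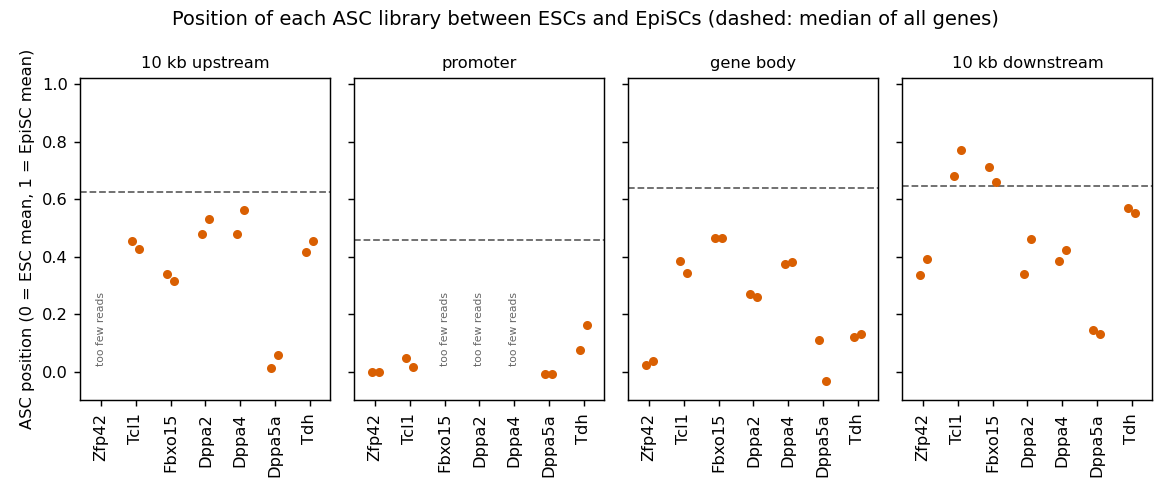
Place of each ASC library between the ESC mean (0) and the EpiSC mean (1) in 4 windows of each gene, with 1 point per ASC library and a dashed line at the median of all genes. Promoter points lie near 0, Zfp42 and Dppa5a stay near 0 in the gene body, and Tcl1 and Fbxo15 lie above the dashed line in the downstream flank.

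Because overall methylation was lower in ASCs than in EpiSCs, the promoter was also compared with the flanks of the same gene. For Tcl1, the promoter level minus that of the flanks was -54.6 and -61.4 points in ASCs and 2.91 and 4.41 points in EpiSCs. ASCs minus EpiSCs gave -61.6 ± 3.399 points (SE, adjusted p = 3.16e-06), a gap at the promoter well beyond that of the flanks. Tdh gave -42.5 ± 5.24 (SE, adjusted p = 0.000134) and Zfp42 -39.7 ± 4.47 (SE, adjusted p = 8.06e-05). Both were called, as was Tcl1. The flanks of Zfp42 rest mostly on the downstream side in ASCs. Its upstream flank held 39 of 193 and 33 of 194 ASC observations and was itself low, at 0% and 12.1%. Dppa5a, whose flanks were low in ASCs as well, gave -15.2 ± 4.01 (SE, adjusted p = 0.00842) and was not called. Of 14486 genes 7.74% were called in this direction and 39.3% in the other, and the median was 16.0 points. Against the gene body in place of the flanks only Tcl1 was called among the 4, where 6.5% of 14344 genes were called in this direction and 34.6% in the other, while Zfp42 gave -5.11 points (adjusted p = 0.26) and Tdh -5.78 points (adjusted p = 0.302).

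The extent of the low stretch was measured in bins of 500 bp. A low stretch is the run of bins around the start that stood under 30% on the group mean, carried over bins with fewer than 10 observations in the group. In EpiSCs no such stretch existed at any of the 7 starts. In ASCs it was 20500 bp long at Zfp42, with 9 of 41 bins too shallow, 19000 bp at Dppa5a, 12500 bp at Tdh, 7500 bp at Fbxo15, 6000 bp at Tcl1, 5000 bp at Dppa4 and 4000 bp at Dppa2. The stretch of Zfp42 ran from 4000 bp before the start, beyond which too few reads were left to place its end, past the end of the gene, and that of Tdh from 500 bp before the start through most of the gene. At Tcl1, Dppa2 and Dppa4 the stretch was nearly centred on the start.

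**Figure D3:**
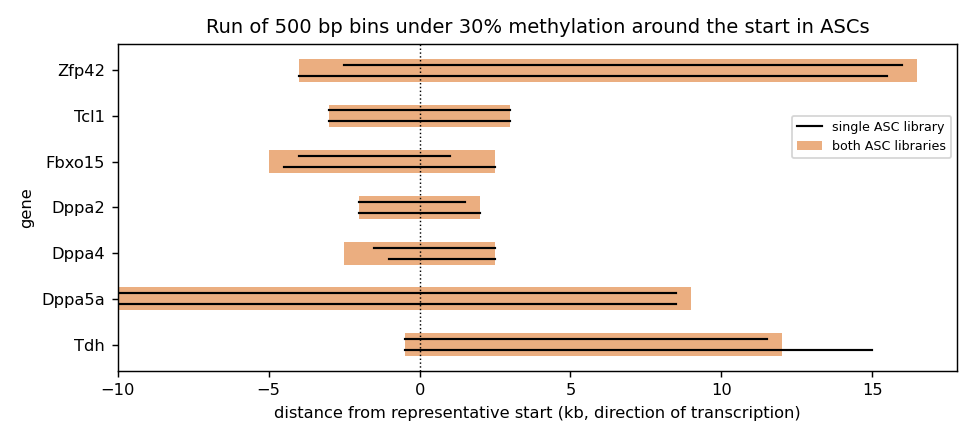
Run of 500 bp bins under 30% methylation around the representative start in ASCs, in kb along the direction of transcription. Bars use the mean of both ASC libraries and black lines each ASC library alone. The runs of Zfp42, Dppa5a and Tdh are over 10 kb long, and those of the other 4 genes under 8 kb.

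Single ASC libraries gave 18500 and 19500 bp at Zfp42, 18500 and 18500 bp at Dppa5a, and 12000 and 15500 bp at Tdh. At the 4 other genes they gave between 3500 and 7000 bp. Many bins of the long runs were too shallow in a single library. These were 15 of 37 and 22 of 39 at Zfp42, 13 of 37 and 14 of 37 at Dppa5a, and 5 of 24 and 10 of 31 at Tdh. The lengths moved with the settings. Under a threshold of 40% the stretch of Tdh was 20500 bp and that of Fbxo15 11000 bp, and in bins of 1000 bp they were 16000 and 11000 bp. Under a threshold of 20% the stretch of Dppa5a was 14500 bp, that of Fbxo15 5000 bp and that of Dppa4 3500 bp, and in bins of 250 bp that of Fbxo15 was 5750 bp. Within the stretch of Zfp42 ASC libraries stood at 3.68% and 5.54%, ESC libraries at 1.66% and 0.824% and EpiSC libraries at 92.5% and 94.8%. The stretch of Dppa5a reached the edge of the flank. When the flanks were widened to 50 kb, an alternative chosen after the data were seen, it became 20500 bp. It then took in the start of Ooep. With the same flanks the stretch of Zfp42 became 32000 bp with 28 of 64 bins too shallow to read. Tcl1, Fbxo15, Dppa2, Dppa4 and Tdh kept their lengths.

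**Figure D4:**
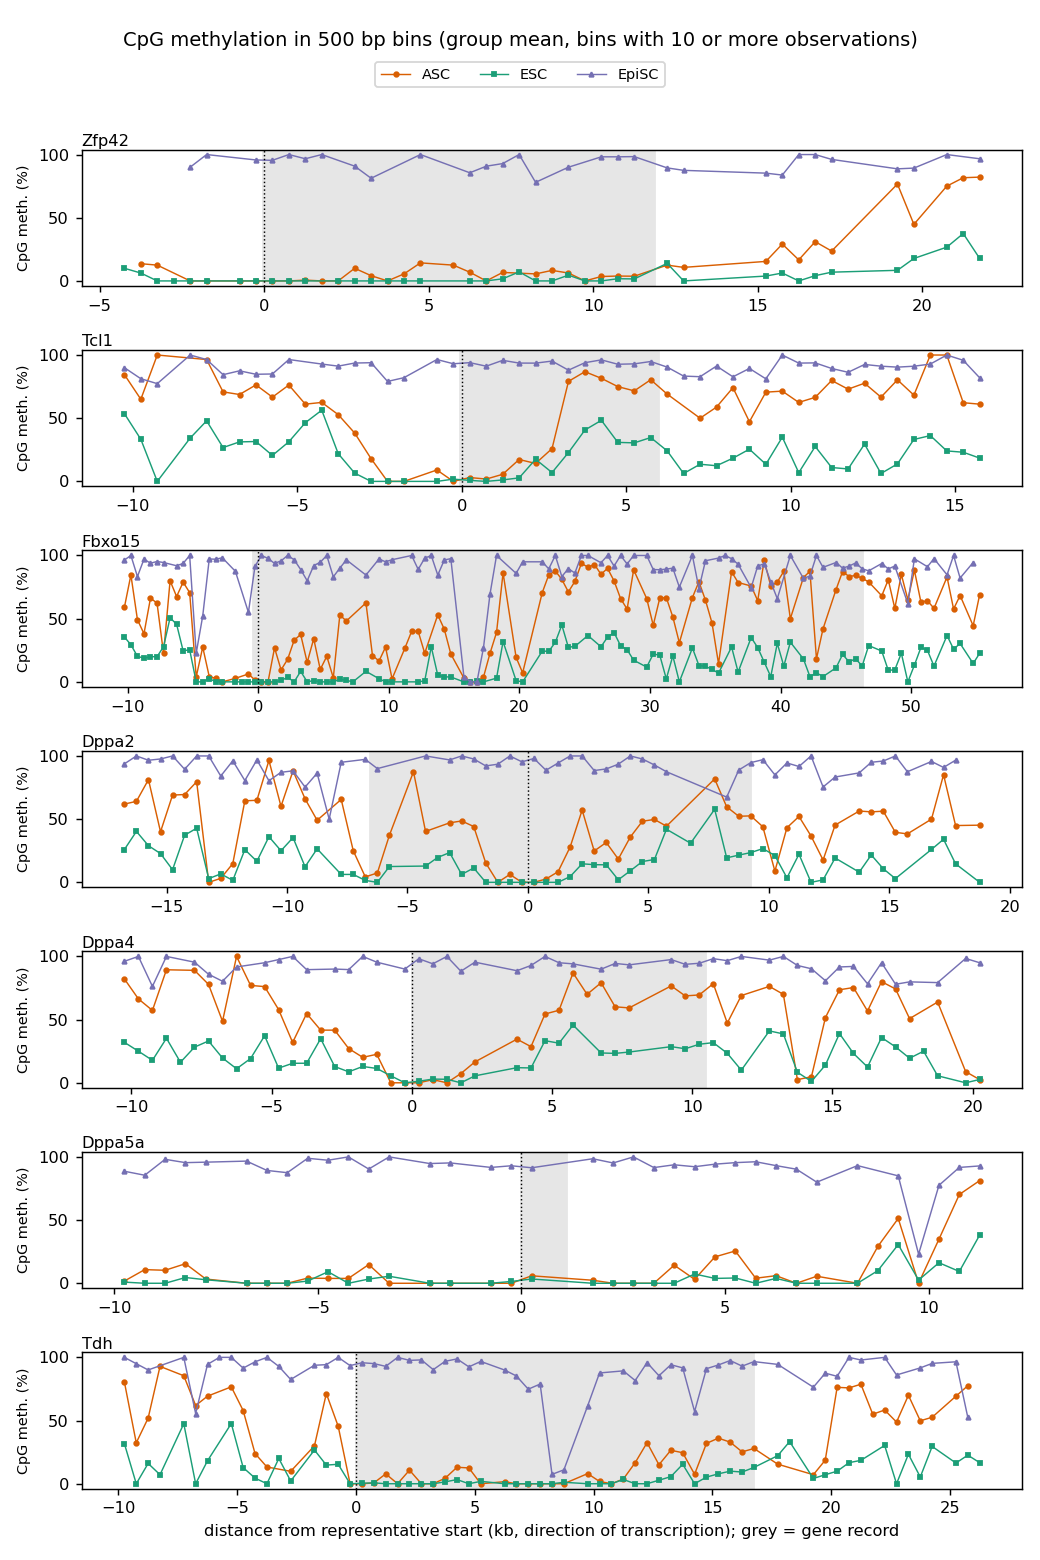
CpG methylation in percent along the 7 genes in bins of 500 bp, as the mean of the 2 libraries of a group, against the distance from the representative start in kb. Grey marks the gene record, the dotted line the start, and lines join neighbouring bins with at least 10 observations. EpiSCs stand at 70% or more in most bins, and ASCs drop to the level of ESCs around each start.

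Bins that stayed low in EpiSCs were few. With at least 20 observations in the group, 4 neighbouring bins of Fbxo15 (chromosome 18, 84950658 to 84952657) stood between 0% and 27.0% in EpiSCs. They lie around the CpG-rich Fbxo15 start whose window also holds the representative start of Timm21. A bin of Tdh (chromosome 14, 63500093 to 63500592) stood at 12.5% and 9.52% in EpiSCs, and the next one at 7.14% and 7.69%. Both lie within the low stretch of ASCs. An intergenic bin 9500 bp past the start of Dppa5a had 6 of 23 and 7 of 35 methylated observations in EpiSCs on 6 CpG sites. No bin of Zfp42, Tcl1, Dppa2 or Dppa4 with this depth was under 30% in EpiSCs.

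Outside the low stretch, further bins with at least 20 observations in ASCs and in EpiSCs stood under 30% in ASCs and at 70% or more in EpiSCs. There were 10 at Fbxo15, all in its introns, 8 at Tdh, 6 at Dppa2 and 4 at Dppa4. All 4 bins of Dppa4 overlap bins counted for Dppa2, in an intergenic stretch between the genes and at the upstream Dppa2 start. In the intergenic stretch the bin at 48297235 to 48297734 had 1 of 20 and 0 of 17 methylated observations in ASCs, 1 of 24 and 4 of 32 in ESCs, and 23 of 23 and 18 of 21 in EpiSCs. Upstream of Tdh, the bin at 63512593 to 63513092 had 2 of 18 and 4 of 26 in ASCs, 0 of 36 and 0 of 25 in ESCs, and 27 of 27 and 17 of 17 in EpiSCs. These bins were picked by their levels, so the values describe them and test nothing.

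Neighbouring genes were counted to see how far the pattern spread along the chromosome. Within 100 kb of the 7 starts lay the representative starts of 21 other protein-coding genes, 11 of which were tested at the promoter. Of these 4 were called lower in ASCs than in EpiSCs, against the 30.2% of all windows given above, and the median difference of the 11 was -17.1 points. The 5 Tcl1b genes beside Tcl1, its paralogs, stood at means between 57.8% and 72.5% in ASCs, and of the 2 tested Tcl1b5 was called, at -25.5 points (adjusted p = 0.00717). Tcl1 was thus unmethylated in ASCs beside relatives that were not. Near Dppa5a, Ddx43 gave -36.3 points (adjusted p = 1.04e-05), Cgas -40.2 (adjusted p = 7.65e-05) and Gm17324 -35.6 (adjusted p = 1.51e-05), each with less than 50% in EpiSCs on the group mean. Ooep, an oocyte gene next to Dppa5a, was too shallow to test at the minimum of 40, with means of 7.41% for ASCs, 4.90% for ESCs and 92.5% for EpiSCs. At the minimum of 10 observations, where 35.5% of windows were called lower in ASCs, it was called at -85.1 points (adjusted p = 1.6e-05).

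Other pluripotency genes were read at their representative promoters, in a list that holds core factors such as Pou5f1, Sox2, Nanog and Sall4 beside naive ones. Of 18 listed genes, among them the transcription factors Esrrb, Klf4, Tbx3 and Prdm14, 16 were tested. Of these 2 were called lower in ASCs than in EpiSCs and 14 were not called, against 30.2% called lower over all promoter windows, and their median difference was -6.78 points, against -8.52 points over all windows. The 2 were Nr0b1, the gene of the nuclear receptor Dax1, at -46.1 points (adjusted p = 9.4e-05), and Nanog, a homeobox gene of the core pluripotency network, at -44.2 points (adjusted p = 7e-05). Nanog stood at 5.19% ± 1.10 in ASCs and 49.4% ± 5.76 in EpiSCs (SD, n = 2). The 2 genes too shallow to test had levels like those of the 7 members. Dppa3, also called Stella, had 7 of 59 and 3 of 43 methylated observations in ASCs, 2 of 97 and 1 of 73 in ESCs, and 36 of 37 and 27 of 27 in EpiSCs. Gdf3, the gene of a TGF-beta family ligand, had 1 of 19 and 4 of 33, then 0 of 47 and 0 of 42, then 39 of 43 and 25 of 32. At the minimum of 10 observations, where 35.5% of windows were called lower in ASCs, both were called, Dppa3 at -89.2 points and Gdf3 at -75.7 points. Of 12 primed genes, all tested, 2 were called lower in ASCs, against the same 30.2% of all windows, Sox3 at -32.9 points (adjusted p = 1.1e-05) and Zic5 at -24.6 points (adjusted p = 0.000346), and the median difference was -1.10 points. Nr0b1 and Sox3 lie on the X chromosome. The study describes female EpiSCs as having an inactive X, and its part in the levels of these genes was not tested.

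The promoters most like the 4 tested members were found by the root mean square difference, over the 6 libraries, from the members' median level in each library. That median was 2.78% and 1.30% for the ASC libraries, 0.384% and 0.885% for the ESC libraries and 95.2% and 93.0% for the EpiSC libraries. The 5 nearest genes were Lrmp at 0.874 points, Ccnb1ip1 at 1.12, Isoc2b at 1.18, Srrm4 at 1.36 and Dpp10 at 1.43. Lrmp stood at 3.45% and 2.67% in the ASC libraries, at 1.53% and 0.962% in the ESC libraries and at 95.7% and 93.8% in the EpiSC libraries. Of 14489 genes 242 lay within 10 points of this profile.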

How the data were processed

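Post-bisulfite adaptor tagging gave whole-genome libraries of 2 ASC, 2 ESC and 2 EpiSC samples. According to the methods and the submitters' processing notes, the authors trimmed reads with Trim Galore, aligned them to GRCm38 with Bismark 0.16.3, removed duplicates and used MethPipe, of a version not given in the sources used here, to merge both strands of each CpG. The deposited tables hold, per CpG and library, the methylation level as a fraction and the coverage as a raw count of reads. Methylated counts were taken as their product, which missed a whole number by at most 0.000115.

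Counts were summed over promoters of every annotated start (GENCODE M21), gene bodies and 10 kb flanks. The representative start followed coding status, APPRIS tag, transcript support level and length. A quasi-binomial model with a term for group was fitted to all 6 libraries for each class of window over all protein-coding genes, moderated with limma 3.58.1 in R 4.3.3, and adjusted p-values (Benjamini-Hochberg, two-sided) cover the whole class. Promoter minus flanks was fitted with limma on percentage points. Python 3.11.15, numpy 2.4.6 and pandas 2.3.3 did the rest. The model was tested on simulated data. The named genes are the 7 members, called neighbours within 100 kb, the 5 promoters most alike and at most 4 called genes of each list. Timm21, Ooep, Dppa3, Gdf3 and the uncalled list genes given as examples were named after their values were seen. The members and lists were chosen with earlier results of these data known. Deviations of same-numbered libraries had correlations between -0.002 and 0.0037 over 14489 promoters. Counting error at this depth could hide a shared preparation, so this check cannot exclude a pairing, and none was assumed. Alternatives changed the minimum, window, model, threshold, depth and libraries.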

Additional observations from a re-analysis of the deposited data

How the results depend on the processing

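Depth limited the tests: at the minimum of 40 observations only 4 of 7 representative promoters could be tested. A minimum of 10 gave 7 called in ASCs against EpiSCs and 7 in EpiSCs against ESCs, and a minimum of 100 left none of the 7, so it gave no value. Thinning every library to the shallowest left 3 promoters, all called, with Zfp42 under the minimum. For promoter minus flanks, the gene body in place of the flanks gave 1 call, where 6.5% of 14344 genes were called lower in ASCs. A minimum of 20 observations gave 5 calls, and the share over all genes at that minimum was not counted. The difference of ASCs from ESCs turned its sign at the promoters of Tdh (-0.279 points) and Dppa5a (0.807 points) in the window reaching 500 bp to either side, and in the body of Dppa5a without ASC replicate 1, where leaving out 1 library gave between -2.709 and 9.326 points. None of these was called in either form. Leaving out 1 library gave 4 promoters called against EpiSCs each time, 0 against ESCs, 7 and 3 to 4 bodies, 6 and 5 upstream flanks, 6 to 7 and 6 downstream flanks, and 3 genes for promoter minus flanks. With a block for the replicate number, 4, 0 and 4 promoters were called for the 3 contrasts, as without it. Shares over all windows were not counted for the thinned libraries, the runs without 1 library or the block. These counts show only whether the members' calls held. Of the differences recomputed, 702 kept their direction and call, 3 reversed, 2 gained and 3 lost a call. Of the lengths of the low stretch, 19 moved with bin size, threshold or flank by more than the SD of the lengths in the 2 single ASC libraries, and 16 by no more than that. Conversion was not measured here.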
